A study of Homo sapiens with 9 samples.

Results

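The 10 genes described here are transcripts that ERK signalling switches on and whose products then restrain or shape the same signal: the phosphatases DUSP1, DUSP4, DUSP5 and DUSP6, the Sprouty genes SPRY1, SPRY2 and SPRY4, the SPRED genes SPRED1 and SPRED2, and the transcription factor gene ETV5. They were listed by symbol among 64253 gene identifiers, with earlier results of these data known, and each symbol matched 1 identifier. All 10 passed the filter on low counts that left 16561 genes for testing. No measurement of ERK activity or of protein was used, so the values below are RNA levels of these genes and nothing else.

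Growth factors bound to receptor tyrosine kinases activate RAS, which starts a relay of the kinases RAF, MEK and ERK. Active ERK enters the nucleus and induces transcription of early genes, among them inhibitors of its own pathway. DUSP proteins remove the activating phosphates from ERK and, for some of them, from the related kinases JNK and p38, whereas Sprouty and SPRED proteins act further up, between the receptor and RAF. ETV5 belongs to the PEA3 branch of the ETS transcription factors, which carry part of the response to fibroblast growth factors. In normal human fibroblasts, strong and lasting ERK signalling is also known to go with senescence, a stable arrest of the cell cycle in which p16, a product of CDKN2A, takes part.

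RNA was sequenced from IMR90, an established line of human fetal lung fibroblasts that keeps a limited lifespan in culture. The control cells carried empty pLKO.1 vector per the sample descriptions (a pLKO.1 GFP vector per the treatment text), the shRRM2 cells carried a short hairpin RNA against RRM2, and the shRRM2/shp16 cells carried that hairpin and then a hairpin against p16. RRM2 is the regulated subunit of ribonucleotide reductase, which makes the deoxynucleotides for DNA synthesis. All groups were grown in 2% oxygen, used at population doubling 30, infected in 2 rounds 24 hours apart and selected with 3 ug/mL puromycin for 7 days. The sample labels name the control group Control, the shRRM2 group Senescence and the shRRM2/shp16 group Senescence-bypass. Each group had 3 libraries, named a, b and c here. The sources used here do not say that the libraries of a group came from separate cultures, so p-values measure the spread between these libraries, which may be technical. A group with the p16 hairpin alone was not analysed here, so that hairpin was seen only in cells that also carry the RRM2 hairpin. RRM2 RNA also differed between shRRM2 and shRRM2/shp16 (values below). The p16 hairpin and the RRM2 level therefore cannot be told apart in that comparison.

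Gene counts ran from 15770895 to 24873291 per library. RRM2 averaged 485 ± 5.23 CPM (counts scaled to the library's TMM-adjusted size, SD, n = 3) in control, 62.1 ± 1.86 in shRRM2 and 177 ± 3.00 in shRRM2/shp16, so it was above its shRRM2 level in the cells with both hairpins. CDKN2A averaged 6.02 ± 0.113, 6.5 ± 0.464 and 4.28 ± 0.321 CPM, which was a log2 change of -0.60 for shRRM2/shp16 against shRRM2 (edgeR, adjusted p = 7.0e-05), while shRRM2 did not pass the test against control (0.11, adjusted p = 0.431). All 10 fibroblast markers were detected, and their summed level was 37687 to 38858 CPM in control, 40761 to 41718 in shRRM2 and 28779 to 29441 in shRRM2/shp16. Of the epithelial markers 3 of 6 were testable. All 6 summed to 24.1 to 25.3, 12.1 to 13.4 and 3.34 to 5.59 CPM, with KRT5 at 0 in all libraries. CLDN4 alone ran from 1.9 to 23.2 CPM over the libraries, while EPCAM reached at most 1.68 and CDH1 0.803. Of the endothelial markers 3 of 5 were testable, and all 5 summed to 64.1 to 68.5, 67.0 to 71.8 and 111 to 120 CPM, nearly all of it TEK. None of the 6 blood cell markers was testable, and CD3E was at 0. Reads outside annotated genes were 17.6% to 18.9% of uniquely placed reads in control, 27.7% to 28.8% in shRRM2 and 23.5% to 24.4% in shRRM2/shp16. These shares and marker sums moved with the groups, and their part in the results below was not tested. Since the RNA is from bulk culture, fewer cells of a type and less RNA per cell cannot be told apart.

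In shRRM2 against control, 6 of the 10 feedback genes passed the test (edgeR quasi-likelihood, Benjamini-Hochberg adjusted p under 0.05), where 60.9% of all tested genes did. DUSP4, DUSP5, DUSP6, SPRY4 and SPRED2 rose, 5 genes against a background of 29.0%, and SPRY2 alone fell, against 31.8%. For 5 of the 10 the ranges of the 2 groups did not overlap, which held for 63.6% of all genes. The median log2 change of the members was 0.11 beside 0.00 for all genes, and their median size of change was 0.12 beside 0.32.

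In shRRM2/shp16 against shRRM2, 9 of 10 passed, where 61.1% of all genes did. DUSP1, DUSP4 and SPRY1 rose, 3 genes against a background of 31.9%, and DUSP5, DUSP6, SPRY2, SPRY4, SPRED1 and ETV5 fell, 6 genes against 29.1%. The ranges did not overlap for any of the 10, as for 64.7% of all genes. The median change of the members was -0.29 beside 0.01 for all genes, and the median size was 0.51 beside 0.32.

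In shRRM2/shp16 against control all 10 passed, where 62.4% of all genes did, with 5 higher (DUSP1, DUSP4, DUSP6, SPRY1 and SPRED2) against a background of 30.0% and 5 lower (DUSP5, SPRY2, SPRY4, SPRED1 and ETV5) against 32.4%. Again the ranges did not overlap for any of the 10, as for 66.2% of all genes, and the median change was 0.02 beside 0.01, with a median size of 0.45 beside 0.34. The comparisons share libraries with each other, so they are set side by side and are not independent. In both comparisons of shRRM2/shp16, the phosphatase and Sprouty genes each had members that rose and members that fell.

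**Figure D1:**
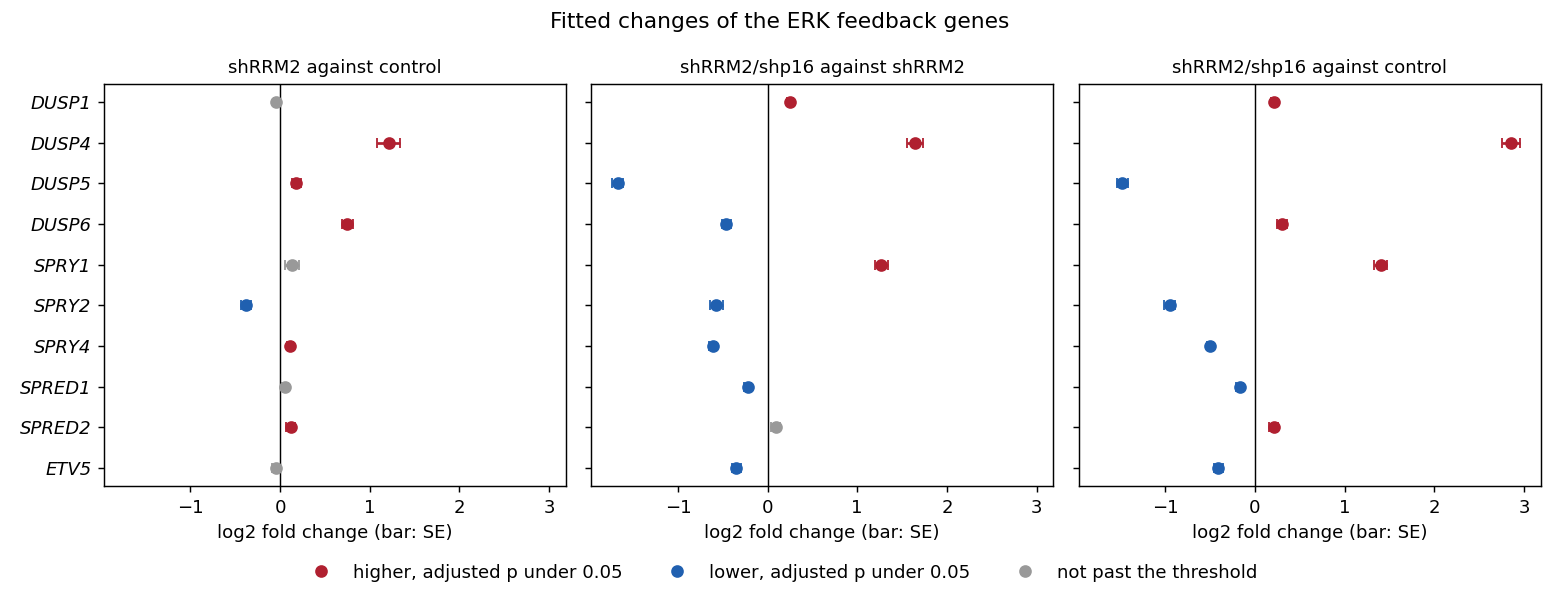
Log2 fold change of each of the 10 feedback genes (horizontal axis, with standard error bars) in the 3 comparisons, from the fit over all 9 libraries. DUSP4 and SPRY1 lie highest and DUSP5 lowest in both comparisons of shRRM2/shp16, while in shRRM2 against control only DUSP4 and DUSP6 lie above 0.5.

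DUSP1 encodes a nuclear phosphatase of early response that acts on p38 and JNK as well as ERK. It lies at chr5:172768090-172771195 on the minus strand (GRCh38, GENCODE 29). Its level was 207, 207 and 200 CPM in control libraries a, b and c, 195, 210 and 193 in shRRM2, and 246, 235 and 230 in shRRM2/shp16. Control and shRRM2 overlapped, and all 3 libraries with both hairpins stood above the other 6. The change was -0.04 ± 0.03 (log2, SE) in shRRM2 against control, which did not pass the test (adjusted p = 0.336). It rose by 0.25 ± 0.03 in shRRM2/shp16 against shRRM2 (adjusted p = 1.5e-08) and by 0.21 ± 0.03 against control (adjusted p = 3.6e-07).

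Promoter sequences from RefSeq (GRCh38.p14) were found for 7 of the 10 genes, all but DUSP4, DUSP5 and ETV5. Those of DUSP1, SPRY1 and SPRY2 are printed because DUSP1 and SPRY1 rose and SPRY2 fell in shRRM2/shp16. A further reason is that their 250 bases before the RefSeq start lie outside the annotated gene. Each is written 5′ to 3′ on the gene's strand, DUSP1 from chr5:172771196-172771445 (minus), SPRY1 from chr4:123396545-123396794 (plus) and SPRY2 from chr13:80341127-80341376 (minus). Capitals mark the core of the cAMP response element, TGACG or its reverse complement.
DUSP1: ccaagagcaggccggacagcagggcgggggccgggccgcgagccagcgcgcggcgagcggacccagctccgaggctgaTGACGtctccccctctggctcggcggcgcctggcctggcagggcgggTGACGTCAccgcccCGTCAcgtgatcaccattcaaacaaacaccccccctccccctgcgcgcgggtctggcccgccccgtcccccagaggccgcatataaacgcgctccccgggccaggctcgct
SPRY1: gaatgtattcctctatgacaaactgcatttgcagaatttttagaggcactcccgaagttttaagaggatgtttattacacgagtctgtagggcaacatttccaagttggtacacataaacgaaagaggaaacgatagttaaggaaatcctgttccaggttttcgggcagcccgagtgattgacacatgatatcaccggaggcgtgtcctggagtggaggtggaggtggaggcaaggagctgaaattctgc
SPRY2: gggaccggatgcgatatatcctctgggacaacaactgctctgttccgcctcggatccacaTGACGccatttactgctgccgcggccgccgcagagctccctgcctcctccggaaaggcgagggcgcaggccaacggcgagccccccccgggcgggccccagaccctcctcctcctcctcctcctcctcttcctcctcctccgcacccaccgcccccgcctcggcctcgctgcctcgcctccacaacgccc
The DUSP1 window held 4 matches to the core on both strands, with the full palindrome TGACGTCA, which itself holds 2 of those core matches, at 125 to 118 bases before the start. The SPRY2 window held 1 core match at 190 to 186 bases before the start, and the SPRY1 window held none. Of the 7 members' windows, 3 held the core, the remaining match being in that of SPRY4 at 68 to 64 bases before its start. The full site was in 1 of the 7. Of 27305 promoter windows of the same length, 21.7% held the core and 1.77% the full site. The AP-1 site TGANTCA, held by 6.60% of the windows, the ETS site CCGGAAG, held by 8.82%, and the CArG box, held by 1.14%, were in none of the 7 members' windows. A match is a run of letters in this window and not evidence of binding, and a missing match says only that these letters are not in it.

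DUSP4 encodes a nuclear phosphatase of ERK and JNK and lies at chr8:29333064-29350668 (minus). It was at 3.48, 3.07 and 3.75 CPM in control, 7.68, 8.54 and 7.57 in shRRM2, and 23.1, 24.9 and 26.4 in shRRM2/shp16. The groups formed 3 separate steps with no overlap, and the lowest library held 55 reads of the gene. DUSP4 rose 2.31-fold in shRRM2 against control (log2 1.21 ± 0.13, adjusted p = 3.2e-11) and a further 3.13-fold in shRRM2/shp16 against shRRM2 (1.64 ± 0.09, adjusted p = 9.2e-21). Against control it was 7.22-fold higher in shRRM2/shp16 (2.85 ± 0.10, adjusted p = 1.8e-27), a size of change above that of 99.2% of tested genes. It was the 1 member that rose in all 3 comparisons beside SPRY2, the 1 that fell in all 3.

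DUSP5, a nuclear phosphatase specific for ERK, lies at chr10:110497838-110511544 (plus). Control libraries had 48.3, 47.0 and 46.8 CPM, shRRM2 libraries 53.1, 55.6 and 52.7, and shRRM2/shp16 libraries 17.2, 16.2 and 17.5. The libraries with both hairpins were far below all others, and the step between control and shRRM2 was small but without overlap. DUSP5 rose by 0.18 ± 0.05 in shRRM2 against control (adjusted p = 0.00113). In shRRM2/shp16 it fell to 31.5% of the shRRM2 level (log2 -1.67 ± 0.06, adjusted p = 1.2e-27) and to 35.8% of the control level (-1.48 ± 0.06, adjusted p = 7.0e-26). DUSP4 and DUSP5, both nuclear, thus moved in opposite directions between these groups.

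DUSP6, the cytoplasmic phosphatase specific for ERK and a widely used readout of the pathway, lies at chr12:89347232-89353271 (minus). It was at 37.8, 39.5 and 31.5 CPM in control, 61.7, 63.5 and 59.3 in shRRM2, and 46.1, 44.7 and 43.6 in shRRM2/shp16. Its order differed from that of the other members, being highest in shRRM2 with shRRM2/shp16 between it and control. DUSP6 rose 1.69-fold in shRRM2 against control (0.75 ± 0.06, adjusted p = 1.0e-15) and fell to 72.9% of that level in shRRM2/shp16 (-0.46 ± 0.05, adjusted p = 7.8e-10). It remained above control there by 0.30 ± 0.06 (adjusted p = 1.5e-05).

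**Figure D2:**
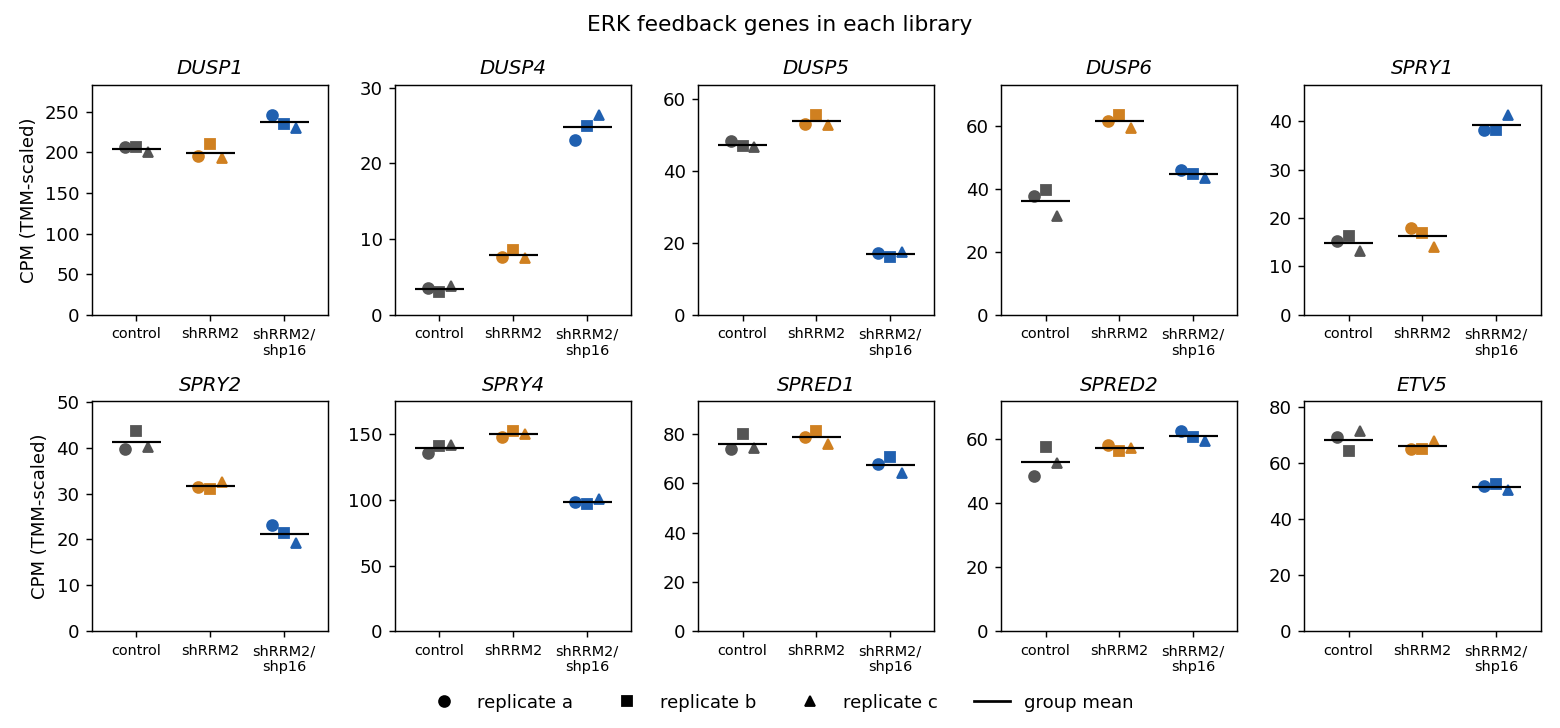
Level of each feedback gene in CPM (vertical axis) in the 9 libraries, by group, with 1 point per library and the group mean. DUSP4 rises in 2 steps, DUSP5 drops to 16.2 to 17.5 CPM in shRRM2/shp16, and DUSP6 is highest in shRRM2.

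The Sprouty genes encode membrane-associated inhibitors of signalling from growth factor receptors to ERK. SPRY1 (chr4:123396795-123403760, plus) was at 15.2, 16.2 and 13.2 CPM in control, 18.0, 16.9 and 14.1 in shRRM2, and 38.2, 38.2 and 41.3 in shRRM2/shp16. The control and shRRM2 ranges overlapped and the shRRM2/shp16 libraries stood well above both. The change in shRRM2 against control, 0.13 ± 0.08, did not pass the test (adjusted p = 0.184), but without shRRM2 library c it was 0.23 and passed (adjusted p = 0.0218). SPRY1 rose 2.4-fold in shRRM2/shp16 against shRRM2 (1.27 ± 0.07, adjusted p = 1.7e-19) and 2.63-fold against control (1.40 ± 0.07, adjusted p = 2.6e-21).

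SPRY2 (chr13:80335976-80340951, minus), whose product also binds the ubiquitin ligase CBL, ran the other way. It was at 39.7, 43.5 and 40.2 CPM in control, 31.4, 31.0 and 32.4 in shRRM2, and 23.2, 21.3 and 19.2 in shRRM2/shp16, falling at each step without overlap. In shRRM2 it fell to 77.0% of control (-0.38 ± 0.06, adjusted p = 4.6e-07). In shRRM2/shp16 it fell to 67.2% of the shRRM2 level (-0.57 ± 0.07, adjusted p = 3.3e-10) and to 51.7% of the control level (-0.95 ± 0.06, adjusted p = 8.9e-18).

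SPRY4 (chr5:142310427-142326455, minus) had the highest CPM of the member Sprouty genes in every group. Control libraries had 136, 141 and 142 CPM, shRRM2 libraries 148, 152 and 150, and shRRM2/shp16 libraries 98.6, 96.6 and 101. As for DUSP5, shRRM2 lay slightly above control and shRRM2/shp16 below both. The rise in shRRM2 against control was 0.11 ± 0.03 (adjusted p = 0.00642), and it was lost when no filter on low counts was used (0.07, adjusted p = 0.191). In shRRM2/shp16 SPRY4 fell to 65.7% of the shRRM2 level (-0.61 ± 0.04, adjusted p = 2.2e-19) and to 70.7% of control (-0.50 ± 0.03, adjusted p = 9.5e-17). The antisense gene SPRY4-AS1 held 25 to 45 reads per library, and the strand setting of the counting is not given in the sources used here.

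SPRED1 and SPRED2 encode proteins that bring the RAS inhibitor neurofibromin to the membrane. SPRED1 (chr15:38252326-38357249, plus) averaged 75.9 ± 3.25 CPM in control, 78.5 ± 2.45 in shRRM2 and 67.4 ± 3.19 in shRRM2/shp16 (SD, n = 3). It did not pass the test in shRRM2 against control (0.05 ± 0.04, adjusted p = 0.334). It fell by 0.22 in shRRM2/shp16 against shRRM2 (-0.22 ± 0.04, adjusted p = 4.3e-05), and by 0.17 against control (-0.17 ± 0.04, adjusted p = 8.9e-04). The call against control was lost when libraries were scaled by total counts alone (-0.06, adjusted p = 0.207).

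SPRED2 (chr2:65310851-65432637, minus) averaged 52.8 ± 4.51, 57.1 ± 0.978 and 60.8 ± 1.44 CPM. Its rise of 0.12 ± 0.05 in shRRM2 against control (adjusted p = 0.0377) is the weakest call among the members, since the ranges overlapped and the call was lost with DESeq2 (adjusted p = 0.0584), with no filter on low counts (0.266), and without control library a (0.383), control library c (0.0953), shRRM2 library a (0.0912) or shRRM2 library c (0.0568). The change in shRRM2/shp16 against shRRM2, 0.09 ± 0.05, did not pass (adjusted p = 0.109), though the ranges did not overlap, and with total counts alone it was 0.15 and passed (adjusted p = 0.00898). Against control SPRED2 rose by 0.21 ± 0.05 in shRRM2/shp16 (adjusted p = 2.5e-04).

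ETV5 (chr3:186046308-186110318, minus) was at 69.6, 64.3 and 71.4 CPM in control, 65.0, 65.1 and 68.0 in shRRM2, and 51.8, 52.6 and 50.6 in shRRM2/shp16. Control and shRRM2 overlapped (-0.05 ± 0.04, adjusted p = 0.321), and shRRM2/shp16 lay below both. There it fell to 78.2% of the shRRM2 level (-0.35 ± 0.05, adjusted p = 8.6e-09) and 75.4% of control (-0.41 ± 0.05, adjusted p = 1.4e-10). The gene DGKG overlaps ETV5 on the same strand and held 12 to 55 reads per library.

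The authors' deposited table gives its own comparison of shRRM2/shp16 with shRRM2. There 7 of the 10 genes are marked significant, where 28.5% of the genes tested here are: DUSP1, DUSP4, DUSP5, DUSP6, SPRY1, SPRY2 and SPRY4. The authors' deposited table lists a log2 change of 1.66 for DUSP4, -1.59 for DUSP5, -0.51 for DUSP6 and 1.30 for SPRY1. In the authors' deposited table SPRED1, at -0.31 (q = 0.232), and ETV5, at -0.40 (q = 0.183), are not marked significant. SPRED2 is at -0.05 there (the authors' deposited table, q = 0.907), opposite in sign to the fitted 0.09, which did not pass the test either.

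Divided by gene length, the levels could be compared between genes. In RPKM (CPM per kilobase of gene length), DUSP1 was the most abundant member in every group, at 101 in control, 98.7 in shRRM2 and 117 in shRRM2/shp16, and SPRY4 came second, at 23.6, 25.3 and 16.6. DUSP4 was last in every group, at 0.473, 1.09 and 3.42. Between them the order changed. DUSP5 followed SPRY4 in control at 18.1 RPKM and in shRRM2 at 20.6, and next to last in shRRM2/shp16 at 6.49, where its range overlapped that of SPRY2 (6.99). DUSP6 was at 7.83 in control, 13.3 in shRRM2 and 9.67 in shRRM2/shp16. SPRY1 was next to last in control at 3.75 and in shRRM2 at 4.13, and stood at 9.9 in shRRM2/shp16, overlapping DUSP6. In control the ranges of ETV5 (11.8) and SPRED2 (10.2), and of SPRED2 and SPRED1 (9.19), overlapped. In shRRM2 those of ETV5 (11.4) and SPRED2 (11.1) did. The length the authors' values imply for SPRY4 is shorter than the GENCODE 29 exons, 5930 bases against 6565, which would raise its RPKM. The authors' deposited values for their own comparison order some genes otherwise. In shRRM2/shp16 they put ETV5 (31.0) and SPRY1 (28.0) above SPRY4 (27.4).

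Shares within a family show these shifts on 1 scale. Of the summed RPKM of DUSP4, DUSP5 and DUSP6, DUSP5 made up 68.6% in control, 58.9% in shRRM2 and 33.1% in shRRM2/shp16. DUSP6 made up 29.6%, 38.0% and 49.4%, and DUSP4 made up 1.8%, 3.13% and 17.5%. The sum itself was 26.4 ± 1.04 RPKM in control, 34.9 ± 1.09 in shRRM2 and 19.6 ± 0.282 in shRRM2/shp16 (SD, n = 3). DUSP1 was left out of this sum. With DUSP1 counted in, the sum was 128 ± 3.03, 134 ± 5.64 and 137 ± 4.07 RPKM. DUSP1 then made up 79.3%, 73.8% and 85.7%, and DUSP4 made up 0.371%, 0.817% and 2.5%. The ratio of DUSP5 to DUSP6 was 2.33 ± 0.269, 1.55 ± 0.0262 and 0.671 ± 0.0357, with no overlap between groups. On this scale the more abundant of the pair differed between shRRM2/shp16 and the other groups. The authors' deposited values instead put DUSP6 (26.5) above DUSP5 (21.4) in shRRM2 too, so the order there differed by source.

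The Sprouty genes changed their balance in a like way. SPRY1 made up 9.16% of their summed RPKM in control, 10.3% in shRRM2 and 29.5% in shRRM2/shp16, SPRY2 made up 33.1%, 26.1% and 20.8%, and SPRY4 made up 57.7%, 63.6% and 49.6%. The ratio of SPRY1 to SPRY2 was 0.277 ± 0.0215, 0.397 ± 0.0563 and 1.43 ± 0.2 (SD, n = 3). It was above 1 in all 3 shRRM2/shp16 libraries (1.26 to 1.65) and at most 0.441 in the other 6. The authors' deposited values put SPRY1 (11.4) below SPRY2 (14.3) in shRRM2 and SPRY1 (28.0) above SPRY2 (9.87) in shRRM2/shp16. The order was thus the same, but the size of the ratio differed by source. The sum of the Sprouty genes was 40.9 ± 1.19, 39.9 ± 0.267 and 33.5 ± 0.518 RPKM. The ratio of SPRED1 to SPRED2 was 0.899 ± 0.0477, 0.858 ± 0.0371 and 0.692 ± 0.0271.

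**Figure D3:**
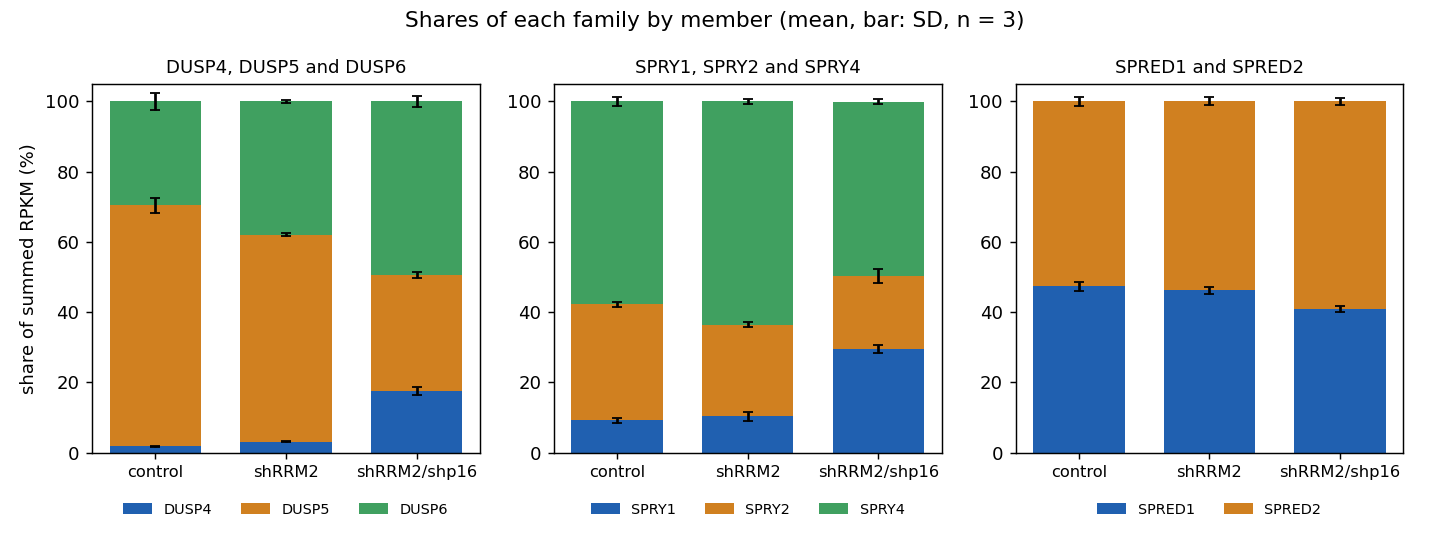
Share (%) of each gene in the summed RPKM of DUSP4, DUSP5 and DUSP6, of SPRY1, SPRY2 and SPRY4, and of SPRED1 and SPRED2. Bars give group means over 3 libraries, with SD bars. DUSP4 makes up 17.5% of its sum, which leaves out DUSP1, and SPRY1 29.5% of its sum in shRRM2/shp16, against 1.8% and 9.16% in control. With DUSP1 counted in, DUSP4 makes up 2.5% in shRRM2/shp16 and 0.371% in control.

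Over the 9 libraries, most members moved together with, or in mirror image to, several others. DUSP5 and SPRY4 had a Pearson r of 0.995 on log2 CPM, and SPRY1 and DUSP4 one of 0.921. SPRY2 and DUSP4 had an r of -0.991, as did SPRY1 and ETV5. DUSP6 had no close partner, the member most like it being SPRED2 at 0.398. These values describe 9 libraries in 3 groups, share those libraries and their scaling, and carry no test.

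The rest of the pathway is given from lists chosen by symbol, and every rise or fall named passed the same edgeR test. Of the ligands of growth factor receptors, 20 of 21 could be tested, and 12 were higher and 4 lower in shRRM2 against control, beside 29.0% and 31.8% of all tested genes. Their median log2 change was 0.35, that of all genes 0.00. In shRRM2/shp16 against shRRM2, 9 were higher and 9 lower, beside 31.9% and 29.1% of all genes, with a median of 0.01, equal to that of all genes. Against control, 11 were higher and 6 lower in shRRM2/shp16, beside 30.0% and 32.4%, with a median of 0.62 beside 0.01. AREG and EREG, both ligands of the epidermal growth factor receptor, had the largest log2 rises in shRRM2/shp16 of the ligands whose mean log2 CPM reached 2. AREG (amphiregulin) averaged 21.5 ± 1.87 CPM in control, 22.5 ± 1.9 in shRRM2 and 435 ± 3.97 in shRRM2/shp16, a rise of 4.27 in shRRM2/shp16 against shRRM2 (log2, adjusted p = 1.2e-46). EREG (epiregulin) averaged 21.0 ± 1.75, 16.3 ± 0.675 and 347 ± 6.04 CPM, a rise of 4.41 (adjusted p = 1.3e-46). NRG1, a ligand of ERBB receptors, averaged 29.5 ± 0.868, 59.8 ± 0.881 and 343 ± 2.35 CPM. It rose by 1.02 in shRRM2 against control (adjusted p = 5.1e-23) and by 2.52 in shRRM2/shp16 against shRRM2 (adjusted p = 2.6e-42).

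Fibroblast growth factors moved both ways in shRRM2/shp16. FGF5 averaged 157 ± 2.55, 188 ± 4.97 and 39.0 ± 0.837 CPM, a log2 change of -2.27 in shRRM2/shp16 against shRRM2 and -2.01 against control. FGF1 averaged 19.2 ± 0.494, 16.3 ± 0.361 and 4.29 ± 0.43 CPM, with -1.92 and -2.15. FGF2, FGF7 and FGF10, which the rule for named genes did not pick and which were added after their values were seen, rose in the same comparisons. FGF2 averaged 160 CPM in control, 239 in shRRM2 and 722 in shRRM2/shp16, with 1.59 ± 0.04 (SE) against shRRM2 and 2.18 ± 0.04 against control. FGF7, known as keratinocyte growth factor, averaged 78.0, 126 and 372 CPM, with 1.56 ± 0.03 and 2.25 ± 0.04. FGF10 was scarce, at 0.0664, 0.0635 and 1.56 CPM, and FGF18 did not pass the test in any comparison (adjusted p = 0.885, 0.622 and 0.73). PDGFD, a ligand of platelet-derived growth factor receptors, was lowest in shRRM2, at 12.2 ± 1.22, 3.49 ± 0.375 and 16.7 ± 0.442 CPM (-1.80 in shRRM2 against control). HGF, the ligand of MET, was at 110 ± 3.24, 82.3 ± 1.84 and 352 ± 3.8 CPM and fell in shRRM2 against control (-0.41), whereas IGF2 rose there (0.77), at 94.9 ± 4.38, 162 ± 2.75 and 58.7 ± 2.06.

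Of the receptors, 12 of 14 could be tested, and 3 were higher and 5 lower in shRRM2 against control (median -0.11), 5 higher and 3 lower in shRRM2/shp16 against shRRM2 (median 0.13), and 4 higher and 5 lower against control (median -0.04). Of all tested genes 60.9%, 61.1% and 62.4% were called in these comparisons, beside 8, 8 and 9 of the 12 receptors. PDGFRA, the alpha receptor of platelet-derived growth factor, averaged 263 ± 4.63 CPM in control, 187 ± 2.33 in shRRM2 and 709 ± 3.94 in shRRM2/shp16 (log2 -0.50, then 1.92). MET, the receptor of HGF, averaged 134 ± 2.21, 138 ± 3.2 and 40.1 ± 2.34 CPM and fell in shRRM2/shp16 (-1.78 against shRRM2, -1.74 against control), while its ligand was highest there. EGFR, the receptor of AREG and EREG, was at 486 ± 5.82, 421 ± 7.57 and 582 ± 11.3 CPM (0.47 in shRRM2/shp16 against shRRM2). KIT, the stem cell factor receptor, was scarce, at 5.16 ± 0.615, 7.46 ± 0.865 and 2.31 ± 0.171 CPM, rising by 0.52 in shRRM2 against control and falling in shRRM2/shp16 against shRRM2 (-1.68). ERBB2 rose (0.38) and PDGFRB fell (-0.31) in shRRM2 against control, and IGF1R rose in shRRM2/shp16 against control (0.28).

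**Figure D4:**
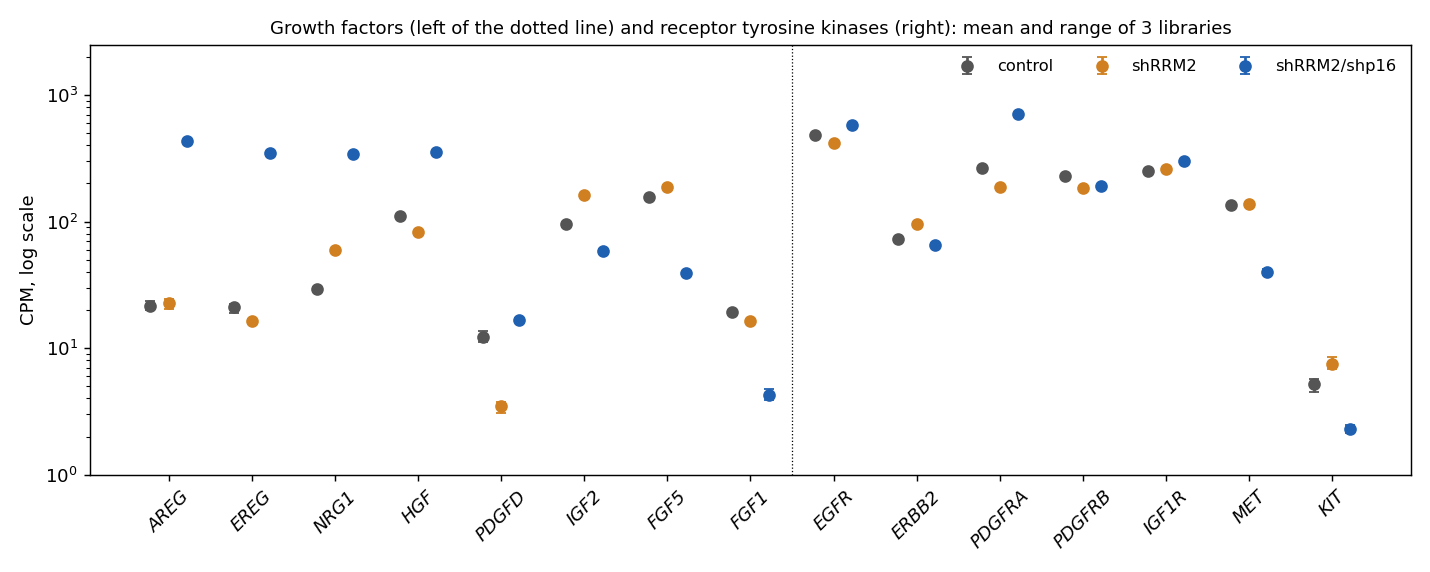
Level in CPM (logarithmic vertical axis) of 8 growth factors and 7 receptors by group, as the mean and range of 3 libraries. AREG and EREG lie between 15.8 and 24.3 CPM in control and shRRM2 and at 435 and 347 CPM on average in shRRM2/shp16, while MET drops to 40.1 CPM there.

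The kinase relay itself, from adaptors to the kinases downstream of ERK, was tested for 28 of 29 genes. The RRM2 hairpin group had 12 higher and 3 lower than control (median 0.09), the cells with both hairpins had 8 higher and 12 lower than shRRM2 (median -0.07), and against control 11 were higher and 13 lower (median -0.02). The calls, 15, 20 and 24 of 28, stand beside 60.9%, 61.1% and 62.4% of all tested genes, and the all-gene medians were 0.00, 0.01 and 0.01. RPS6KA2, a ribosomal S6 kinase that ERK activates, averaged 86.7 ± 1.18, 77.0 ± 4.63 and 192 ± 4.19 CPM and rose by 1.32 in shRRM2/shp16 against shRRM2. RPS6KA3, of the same family, was at 58.3 ± 1.97, 57.0 ± 4.45 and 84.4 ± 3.32 CPM (0.57). The RAS relatives RRAS and RRAS2 fell in that comparison (-1.15 and -0.92), RRAS from 71.3 ± 4.02 to 32.1 ± 1.41 CPM. MRAS (0.51) and MKNK1 (0.38) rose, and NRAS (-0.37) and RPS6KA2 (-0.17) fell in shRRM2 against control.

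Other negative regulators of the pathway were tested for 18 of 21 genes. Against control, shRRM2 had 7 higher and 4 lower (median 0.02). With both hairpins 5 were higher and 11 lower than in shRRM2 (median -0.23), and against control 6 were higher and 11 lower (median -0.21). Of all tested genes, 29.0% were higher and 31.8% lower in the first comparison, 31.9% and 29.1% in the next and 30.0% and 32.4% in the last, with medians of 0.00, 0.01 and 0.01. ERRFI1, an inhibitor of the epidermal growth factor receptor, was highest in shRRM2 and lowest in shRRM2/shp16, as DUSP5 was, at 171 ± 5.59, 291 ± 6.44 and 108 ± 3.47 CPM, a log2 rise of 0.77 with the RRM2 hairpin and a change of -1.44 when the p16 hairpin was added. DUSP16, a phosphatase that prefers JNK, rose in shRRM2/shp16 (1.01 against shRRM2), at 19.8 ± 1.31, 20.4 ± 1.37 and 41.1 ± 0.675 CPM. DUSP7, a cytoplasmic phosphatase of ERK like DUSP6, was lower in shRRM2/shp16 than in control (-0.80), at 51.2 ± 1.08, 45.6 ± 2.55 and 29.3 ± 1.56 CPM. RASAL2, a GTPase-activating protein for RAS, fell in shRRM2/shp16 against shRRM2 (-1.08), and PEA15, which holds ERK in the cytoplasm, fell against control (-0.81). CBLB rose in all 3 comparisons (0.48, 0.37 and 0.85), while in shRRM2 against control DUSP10 (-0.26) and CBL (-0.19) fell.

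Other transcriptional targets of ERK were tested for 16 of 17 genes. Against control, shRRM2 had 3 higher and 11 lower, beside 29.0% and 31.8% of all genes (median -0.56 beside 0.00). With both hairpins 11 were higher and 5 lower than in shRRM2, beside 31.9% and 29.1% (median 0.53 beside 0.01). Against control shRRM2/shp16 had 6 higher and 8 lower, beside 30.0% and 32.4% (median -0.11 beside 0.01). FOS, an early gene of the AP-1 factor, was at 7.7 ± 0.456, 3.63 ± 0.266 and 11.6 ± 0.708 CPM and rose by 1.68 in shRRM2/shp16 against shRRM2. FOSB fell in shRRM2 against control (-1.53) and rose in shRRM2/shp16 against shRRM2 (1.16). FOSL1, a later AP-1 member, instead fell at both steps, from 324 ± 6.55 through 176 ± 5.27 to 85.1 ± 3.16 CPM, with -1.05 in shRRM2/shp16 against shRRM2 and -1.93 against control. CCND1, which encodes cyclin D1, was at 1429 ± 56.1, 1974 ± 31.1 and 714 ± 9.64 CPM, a log2 rise of 0.47 with the RRM2 hairpin and a change of -1.47 when the p16 hairpin was added, the same order as DUSP5 and SPRY4. ETV4, the relative of ETV5, rose in shRRM2/shp16 against control (0.79), at 19.1 ± 0.393, 19.9 ± 0.382 and 33.1 ± 2.65 CPM, whereas ETV5 fell there. JUNB rose there too (0.72), EPHA2 rose in shRRM2 against control (0.50), and SPHK1 fell in it (-1.17). Among the listed genes, DUSP8, DUSP9, IER3, HRAS, BTC, ERBB4 and FGFR2 had too few counts to be tested. IER3 matched 6 identifiers, DUSP8 3 and HRAS 2, and the 1 with most counts was kept. Reads without a unique placement were not counted, and their part in these low counts was not tested. Such counts therefore do not show that these genes are barely expressed.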

How the data were processed

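RNA of 9 IMR90 libraries was made with a stranded, ribosome-depleting kit, per the labels' protocols. The authors deposited raw read counts per gene; TopHat2 2.0.9, Cufflinks 2.0.2, Cuffdiff and the build GRCh38 are named, without their roles, per the submitters' processing notes. One deposited table also holds log2 RPKM, used for gene lengths, and the authors' own comparison with its log2 fold changes, p-values and q-values. Its expression signal and test statistic score columns, deposited beside them, were not interpreted. The log2 RPKM column of shRRM2 library c matched its counts for 5.49% of genes within 1% and was not used for lengths; the other 8 matched. Every per-sample column matched a sample.

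Tally rows that name no gene were left out; reads outside genes were 17.6% to 28.8% and ambiguous reads 3.74% to 6.02% of uniquely placed reads. Within each group every pair of libraries differed beyond counting error (chi-square per degree of freedom 1.44 to 2.95), so no pair was merged; this does not show separate cultures. The counts went into edgeR 4.0.16 (R 4.3.3): TMM scaling, filterByExpr by group (16561 of 64253 genes, 99.8% of counts), a quasi-likelihood fit over all 9 libraries with a coefficient for each group (6 residual degrees of freedom), and Benjamini-Hochberg adjustment over all genes. CPM are TMM-scaled, and RPKM divide them by the length implied by the authors' values. DESeq2 1.42.0, other scalings and filters, a replicate block and leaving out each library were alternatives. The fit was tested on simulated data for shRRM2 against control. Named genes are the 10 members and, from each pathway list and comparison, the 2 highest and 2 lowest called changes whose mean log2 CPM reached 2. The members and lists were chosen with earlier results of these data known, so counts over them are descriptions. A few genes that the rule or lists cover are not reported here. Precision is limited by 3 libraries a group and covers the spread between libraries only.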

Additional observations from a re-analysis of the deposited data

How the results depend on the processing

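Each count of called genes and each member's change was recomputed under 16 other settings. All counts stayed within 1.5 times the reported ones: 8827 to 10265, 8906 to 10366 and 9222 to 10583 genes in shRRM2 against control, shRRM2/shp16 against shRRM2 and shRRM2/shp16 against control, and 4 to 6, 9 to 10 and 9 to 10 feedback genes. DESeq2 gave the lowest counts of genes. Of the member values, 469 kept their direction and side of the threshold, 8 lost the call, 2 gained it and 1 changed sign; the calls lost and gained are given beside SPRY1, SPRY4, SPRED1 and SPRED2. The sign change was DUSP1 in shRRM2 against control, 0.01 (adjusted p = 0.89) with total counts and no scaling factors, a setting chosen after seeing the data. The cause was not tested. That setting moved the median change of all genes by 0.104 in shRRM2/shp16 against control and the share of higher calls there from 48.1% to 59.7%. With the replicate letter as a replicate block, 10101, 10134 and 10388 genes were called, and 6, 9 and 10 feedback genes. Correlations of deviations between samples of the same letter ran from -0.0954 to 0.17, and of different letters from -0.114 to 0.144. These weak values show no pairing by letter, but they cannot exclude it. Depth limits the precision of DUSP4 most, at 55 reads in the lowest library.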

Other observations

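DUSP6 stood apart from the other feedback genes, so the genes nearest to its pattern were looked up among 11288 genes that had a symbol and whose mean log2 CPM reached 2. Among the nearest was CTA-941F9.10, with a Pearson r of 0.988 on log2 CPM over the 9 libraries and means of 11.5 ± 0.995 CPM in control, 17.9 ± 0.462 in shRRM2 and 13.4 ± 0.0463 in shRRM2/shp16 (SD, n = 3). PKIG, an inhibitor of protein kinase A, had an r of 0.985, with 28.9 ± 1.04, 36.6 ± 1.63 and 31.7 ± 0.457 CPM. Both were picked for this likeness, and the values share libraries and scaling.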
